A study of Ovis aries with 4 samples.

Results

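XCL1-negative CD4-negative T cells of the sheep mammary gland were defined as cells that carried T cell receptor signalling transcripts but no transcript of the chemokine XCL1, of the helper T cell genes CD4 and CD40LG, or of the activation genes CTLA4 and IL2RA. A member had at most 20% mitochondrial UMIs over 13 genes, at least 2 UMIs (unique molecules) of CD3E and CD247 together, and no UMI of those 5 genes. It also had fewer than 5 UMIs of the fibroblast gene DCN and none of the epithelial gene EPCAM, the macrophage gene C1QA or the vascular mural gene EDNRA. The rule found 495 members among 38886 cells, which is 1.27% of all cells and 7.59% of the 6522 cells with a CD3E or CD247 UMI. The 11 genes of the rule chose the members, so their values are a description and were not tested.

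The cells came from mammary tissue of 4 lactating ewes, each ewe giving 1 droplet library (10x) for single-cell RNA sequencing. Libraries titled LH (replicates 1 and 2) are taken as peak lactation by elimination. The series names peak and late lactation and abbreviates them as PL and LL, so LH is not itself among its abbreviations. Every stage result below rests on this reading. The 2 LL libraries (replicates 1 and 2) are late lactation. The labels give no breed, age, parity or treatment, and no sort was described.

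T cells are defined by the T cell receptor and the CD3 chains that pass its signal into the cell, with CD247 as the zeta chain and LCK as the kinase that starts signalling. Outside the CD4 helper lineage they include CD8 cytotoxic cells and, abundantly in ruminants, gamma-delta T cells. In epithelial tissues including the mammary gland such cells lie within and beneath the epithelium, bind neighbouring cells through integrins and release interferon gamma and tumour necrosis factor.

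In the members CD3E reached 721 and 720 CPM (a gene's UMIs scaled to the same total of UMIs in every library) in LH and 763 and 941 CPM in LL. CD247 was at 182 and 204 CPM in LH against 105 and 118 CPM in LL. Of the members, 325 had CD3E alone, 162 had both genes and 8 had CD247 alone. LCK was low, with a UMI in 9.09% of members and levels from 29.1 to 41.2 CPM. The leukocyte integrin chain ITGAL was seen in 44.4% and the G1 cyclin CCND3 in 68.9%. With each cell thinned to 1000 UMIs, the shares for LCK, ITGAL and CCND3 were 4.15%, 23.7% and 43.4% in members against 0.139%, 0.708% and 13.3% in EPCAM-positive cells. LCK and ITGAL were thus rare in epithelial cells, whereas CCND3 was also frequent in them. The contrast was with epithelium alone, so it does not separate T cells from other leukocytes. CD3D, the other CD3 chain with a symbol, was tested against the other CD3E or CD247 cells and was not called. The EPCAM-positive cells were deeper, with medians from 9274 to 11161 UMIs.

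Macrophage, mast cell and regulatory T cell markers were at or near 0. In all 4 libraries the members held 0 UMIs of CD14, LYZ, TPSB2 and FCER1A, and 2 UMIs of the macrophage receptor MRC1. Only 4 of 11 listed macrophage markers and 2 of 6 listed mast cell markers had a symbol. In the other CD3E or CD247 cells MRC1, CD14 and LYZ summed to only 4.42 and 8.27 CPM in LH against 10.2 and 5.79 CPM in LL. FCER1A was at 0 there too, so counts near 0 in members say little. FOXP3, the regulatory T cell factor, had 1 UMI in each LH library and 0 in LL. The natural killer cell genes FCGR3A and NCR1 summed to 75.1 and 14.5 CPM in LH against 30.7 and 17.6 CPM in LL. The inflammatory myeloid genes IL1A, IL1B and CXCL8 summed to 91.0 and 36.4 CPM in LH against 136 and 58.8 CPM in LL, nearly all of it IL1A. Whether the members were CD8 or gamma-delta T cells could not be read, because none of the 17 listed cytotoxic genes and only ID3 of the 9 listed gamma-delta genes had a symbol among the 774 genes named in the files. The same holds for B cells, with 0 of 10 listed markers named.

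Members were shallow and few. Their UMIs came to 692285 and 137521 for LH against 390592 and 170106 for LL, so that 1 UMI was worth 7.27 CPM in LH replicate 2. Their median UMI counts were 2925 and 2772.5 for LH against 2469 and 2034.5 for LL. XCL1-positive T cells had medians of 3658 and 3099.5 in LH against 3158 and 2994 in LL. The 4 libraries shared 158 barcodes, of which 4 belonged to members and none to members of both libraries. Doublet scoring called 4 and 1 members in LH and 15 and 3 in LL, and these were kept.

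The number of molecules behind the choice of members was small. Exactly 2 UMIs of CD3E and CD247 were held by 322 members (65.1%) and 3 or more by 173. Just outside the limit were 775 cells with 1 UMI that met every other condition. In LH replicates 1 and 2 and then LL replicates 1 and 2, ITGAL stood at 382, 217, 153 and 203 CPM in members with exactly 2 UMIs and at 334, 96.4, 162 and 155 CPM in the cells just outside. ID3 was at 13.6, 43.4, 48.7 and 40.6 CPM inside and at 72.6, 113, 96.1 and 50.03 CPM outside. ID3 was thus lower inside in all 4 libraries, whereas ITGAL was higher inside in 3 of them.

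Members made up 7.85% (229 of 2916) and 5.02% (50 of 997) of the CD3E or CD247 cells in LH replicates 1 and 2. In LL replicates 1 and 2 the shares were 9.84% (140 of 1423) and 6.41% (76 of 1186). The stages overlapped, with the LL mean 1.69 percentage points above the LH mean (exact two-sided permutation p = 0.667, where 0.333 is the smallest p that 2 against 2 ewes can give). Without LL replicate 1 the difference became -0.026 points. With the rule applied to cells thinned to 1000 UMIs, the shares were 7.18% and 5.88% in LH against 10.3% and 7.98% in LL. In that setting the stages did not overlap (difference 2.60 points, exact permutation p = 0.333). Of all cells, members made up 3.91% and 0.534% in LH against 1.11% and 0.689% in LL, with the stages overlapping (difference -1.33 points, exact permutation p = 1). Without LH replicate 1 that difference turned to 0.364 points.

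Of the 2330 T cells with at least 2 UMIs of CD3E and CD247 and within the limits for other lineages, 1307 were XCL1-positive, 355 were helper T cells with CD4 or CD40LG, 173 were activated T cells with CTLA4 or IL2RA, and 495 (21.2%) were the members. Over this denominator, chosen after the data were seen, members made up 16.6% and 21.0% in LH against 34.4% and 24.8% in LL. Here both LL ewes lay above both LH ewes (difference 10.8 points, exact permutation p = 0.333, the smallest possible). The difference was 5.94 points without LL replicate 1 and 5.53 points with 3 UMIs of CD3E and CD247 required. It was 15.4 points with the rule applied to cells thinned to 1000 UMIs. These are shares of dissociated cells. Median depth was lower in LL for the members. For the other T cells within the limits it overlapped between stages, at 3755 and 3127 UMIs in LH against 3217 and 2937 in LL. When every cell was thinned to 1000 UMIs, 1.33% to 4.43% of the XCL1-positive cells of a library, 2.97% to 18.0% of the helper cells and 2.78% to 11.1% of the activated cells met the rule for members. Most thinned cells of these gates no longer held 2 UMIs of CD3E and CD247 within the limits. Among those that did, the shares were 8% to 20.6% for XCL1-positive, 18.4% to 64.3% for helper and 15.8% to 66.7% for activated cells. As few as 2 helper or 3 activated cells of a library lay behind these shares. Members themselves met the rule after thinning in 21.9% to 40.8%. How many members at full depth are XCL1-positive, helper or activated cells with an unseen molecule was not tested.

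**Figure D1:**
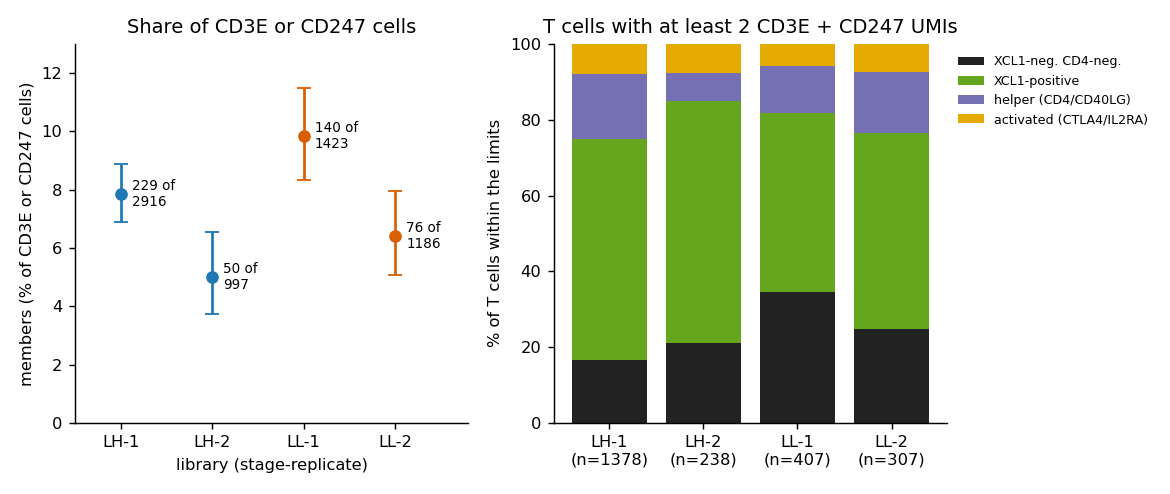
Left: members as a percentage of CD3E or CD247 cells in each library, with exact 95% intervals that cover counting error only and the counts beside each point; the LH and LL points overlap. Right: make-up of the T cells with at least 2 CD3E and CD247 UMIs within the limits for other lineages, where members take 16.6% and 21.0% for LH against 34.4% and 24.8% for LL.

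Interferon gamma divided the members evenly. IFNG had a UMI in 248 of 495 members (50.1%), and after thinning to 1000 UMIs in 36.5% of members against 1.87% of EPCAM-positive cells. By library the share was 53.7% and 52.0% in LH against 47.9% and 42.1% in LL. TNF was found in 50% of members with IFNG and in 26.7% of those without. The share was higher with IFNG in each of the 4 libraries, but in LL replicate 2 it was 15.6% against 13.6%. The median depth of members with and without an IFNG UMI was 2901 and 2927 UMIs in LH replicate 1.

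CD28, the costimulatory receptor that binds CD80 and CD86, had a UMI in 118 members (23.8%). The share was 18.8% and 12% in LH against 36.4% and 23.7% in LL. Members with CD28 had ITGAL at 234 CPM in LH replicate 1, 143 CPM in LL replicate 1 and 129 CPM in LL replicate 2, and those without at 398, 217 and 211 CPM. LH replicate 2 had only 6 members with CD28, none with an ITGAL UMI. Interleukin 1 alpha (IL1A), an inflammatory cytokine better known from myeloid and epithelial cells, was found in 58 members (11.7%). Of these, 48.3% also had a CD28 UMI, against 20.6% of the members without IL1A, and the order was the same in all 4 libraries.

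In all, 46 members (9.29%) held a UMI of FCGR3A (CD16) or NCR1 (NKp46), receptors of natural killer cells that some cytotoxic T cells also carry. LH replicate 1 contributed 33 of the 46. In those 33 cells IFNG was at 2258 CPM, the interleukin 12 receptor chain IL12RB2 at 665 CPM, ITGAL at 539 CPM, its partner chain ITGB2 at 195 CPM and the protease inhibitor TIMP1 at 1272 CPM. CD28 stood at 57.3 CPM in them. Over all members of the same library the corresponding levels were 1179, 179, 365, 70.8 and 423 CPM, and 181 CPM for CD28. These patterns were picked with the values in view and are given without a test.

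The closest comparison was with XCL1-positive T cells, which met the same conditions except that they held XCL1, a chemokine of activated cytotoxic lymphocytes that attracts dendritic cells. Of 6342 genes tested, edgeR's quasi-likelihood test with library as a block called 451 (7.11%), 185 higher (2.92%) and 266 lower (4.19%) in members. Among the 302 genes with a symbol, 30 were called. Members were higher for IL1A, for CD28 and CD86 and for the integrin chains ITGAL, ITGB1 and ITGB2, and lower for the regulators ID3 and FOXO3, while IFNG and TNF did not pass the test.

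IL1A stood at 85.2, 36.4, 136 and 58.8 CPM in members, with values in the order LH 1, LH 2, LL 1, LL 2 here and below. In XCL1-positive cells it was at 7.05, 3.96, 7.45 and 2.00 CPM. Every member value lay above every XCL1-positive value, and the log2 difference was 3.69 (SE 0.30, edgeR adjusted p = 3.3e-07). The call held under all 11 other settings. Of other inflammatory myeloid transcripts, members held 1 UMI of IL1B, 3 of CXCL8 and none of TLR2. The MHC class II gene DQA was also among edgeR's calls in this comparison. It was higher in members by 1.05 with DESeq2 (adjusted p = 0.069) and by 1.14 with 3 UMIs of CD3E and CD247 required (edgeR adjusted p = 0.0998), without a call in either. Whether RNA of other cells contributed to IL1A, CD86 or DQA was not tested. In LH replicate 1 a single member held 24 of the 59 IL1A UMIs. EPCAM-positive cells had IL1A in 1.32% of thinned cells, against 7.05% of thinned members and 0.616% of thinned XCL1-positive cells.

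Costimulatory genes were the second group. CD28 was at 181, 58.2, 253 and 235 CPM in members and at 48.1, 35.6, 109 and 70.1 CPM in XCL1-positive cells. It was higher in members within each of the 4 libraries, by 1.45 on the log2 scale (SE 0.19, edgeR adjusted p = 5.81e-05). CD86, a ligand of CD28 usually found on antigen-presenting cells, was at 30.3, 58.2, 51.2 and 17.6 CPM in members and at 6.44, 0, 19.4 and 8.01 CPM in XCL1-positive cells. It too was higher in each library, by 2.03 (SE 0.46, adjusted p = 0.008), though the adjusted p was 0.108 without LH replicate 1. Of the 22 listed costimulatory and checkpoint genes 3 were tested, 2 were called higher and 0 lower, CD80 not passing (0.38, SE 0.41), with a median log2 difference of 1.45 against -0.01 over all genes tested.

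Integrin genes formed the third group. ITGAL, the alpha chain of LFA-1 with which T cells grip target cells and endothelium, was at 365, 225, 189 and 188 CPM in members and at 213, 123, 79.0 and 100.1 CPM in XCL1-positive cells. Its log2 difference was 0.83 (SE 0.15, edgeR adjusted p = 0.0013), with members higher in 4 of 4 libraries. ITGB2, the beta chain of the same integrin, was at 70.8, 87.3, 28.2 and 47.0 CPM in members and at 19.0, 9.90, 29.8 and 14.0 CPM in XCL1-positive cells. Members were higher in 3 libraries and nearly level in LL replicate 1, with a log2 difference of 1.49 (SE 0.35, adjusted p = 0.0099). That call was lost without LH replicate 1 (adjusted p = 0.273) and without LH replicate 2 (0.051), and with DESeq2 (0.063). ITGB1, which pairs with several alpha chains to bind matrix, was 0.86 higher (SE 0.17, adjusted p = 0.0034). Its adjusted p was 0.106 without LH replicate 1. Of 32 listed homing and adhesion genes 6 were tested, 3 were called higher and 0 lower, and the median log2 difference was 0.49. The integrin chain ITGAV did not pass (-0.36, SE 0.29, adjusted p = 0.624). CXCR4, the receptor for CXCL12, differed by -0.00 (SE 0.18, adjusted p = 0.999).

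GHR, the growth hormone receptor, was 1.49 higher in members (SE 0.29, edgeR adjusted p = 0.0026), from 26.0 to 99.9 CPM against 10.4 to 25.3 CPM.

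Genes lower in members included ID3, an inhibitor of E-protein transcription factors in developing and gamma-delta T cells. It was at 8.67, 80.0, 38.4 and 35.3 CPM in members and at 69.9, 131, 64.1 and 142 CPM in XCL1-positive cells. Each member sum lay below the XCL1-positive sum of its own library, by 1.68 on the log2 scale (log2 difference -1.68, SE 0.30, edgeR adjusted p = 0.001). FOXO3, a forkhead factor of resting T cells, differed by -0.69 (SE 0.15, adjusted p = 0.0061, and 0.201 without LH replicate 1). The translation factor EIF3G differed by -0.60 (SE 0.12, adjusted p = 0.0028, but 0.141 with 3 UMIs of CD3E and CD247 required). The metalloprotease inhibitor TIMP3 differed by -0.53 (SE 0.13, adjusted p = 0.014, but 0.14 without LH replicate 1 and 0.062 without LH replicate 2). The stress kinase MAPK13 differed by -1.20 (SE 0.31, adjusted p = 0.017), a call lost when LH replicate 2 (0.058), LL replicate 1 (0.077) or LL replicate 2 (0.056) was left out or with DESeq2 (0.161). Of 36 listed lymphoid transcription factors 6 were tested, with 0 called higher and 2 lower (median -0.41).

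No cytokine gene of the effector response passed edgeR's test. IFNG was at 1179, 574, 853 and 1035 CPM in members and at 893, 608, 852 and 703 CPM in XCL1-positive cells, a log2 difference of 0.12 (SE 0.12, edgeR adjusted p = 0.714). TNF differed by -0.03 (SE 0.20, adjusted p = 0.978) and IL12RB2 by -0.09 (SE 0.26, adjusted p = 0.939). Of 39 listed effector cytokine and receptor genes 6 were tested, with 0 called by edgeR and a median log2 difference of -0.03. TGFB1 alone came under 0.05 before adjustment, with an edgeR adjusted p of 0.292. A missed threshold does not show that the levels were equal. Glucose handling had 2 of 4 tested genes called higher, the glucose transporter SLC2A3 (0.39, SE 0.10, adjusted p = 0.014) and the glycolytic enzyme GAPDH (0.49, SE 0.12, adjusted p = 0.016). SLC2A3 was lost without LH replicate 1 (0.052), LH replicate 2 (0.07) or LL replicate 2 (0.051), and GAPDH without LH replicate 1 (0.194). The immediate early gene FOS was 0.52 higher (SE 0.10, adjusted p = 0.0014) and the chaperone HSPA1A 0.95 higher (SE 0.24, adjusted p = 0.017). HSPA1A was lost when LH replicate 1 (0.059), LL replicate 1 (0.062) or LL replicate 2 (0.129) was left out, and with DESeq2 (0.161). With 3 UMIs of CD3E and CD247 required, FOS differed by 0.24 (adjusted p = 0.67) and SLC2A3 by 0.07 (0.937), and HSPA1A missed the threshold (0.058). After thinning to 1000 UMIs SLC2A3 (0.082) and HSPA1A (0.09) also missed it. Against helper T cells and against all other CD3E or CD247 cells, edgeR called FOS lower in members. With those other cells held to the limits of the rule it differed by 0.22 (edgeR adjusted p = 0.282). Against helper cells with 3 UMIs required it differed by -0.59 (0.289).

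Over 8 luminal genes without EPCAM, members summed to 21.7, 175, 123 and 153 CPM and XCL1-positive cells to 20.8, 145, 268 and 148 CPM. With all cells thinned to 1000 UMIs 338 genes were called. Without the library block the count was 30 and CD28 and ITGAL missed the threshold (adjusted p = 0.141 and 0.333).

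**Figure D2:**
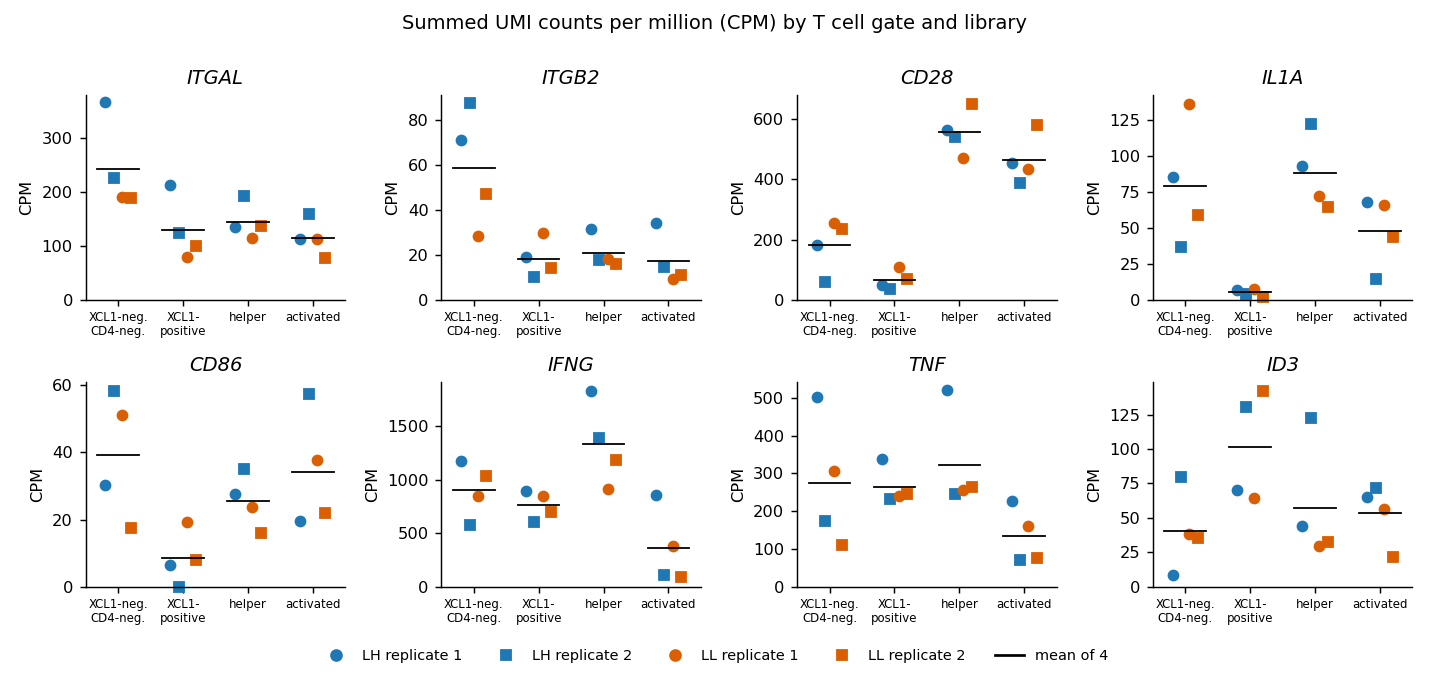
Levels of 8 genes in CPM (linear axes from 0), summed over the cells of each T cell gate in each library; points are libraries and black lines are means of the 4. IL1A in members lies above all XCL1-positive values, and CD28 in members lies below all helper and activated values.

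Against helper T cells, which held CD4 or CD40LG and of which 43.9% also had an XCL1 UMI, CD28, NFKBIA and BHLHE40 were lower in members and ITGAL higher. Of 3251 genes tested, edgeR called 126 (3.88%), 61 higher (1.88%) and 65 lower (2%). LH replicate 2 had only 18 helper cells. Without LH replicate 1, LL replicate 1 and LL replicate 2 in turn, 30, 81 and 67 genes were called, and without the library block 9. In LH replicate 2 the 5 contractile markers without EDNRA summed to 733 CPM in helper cells and to 94.5 CPM in members, and their part in the result was not tested.

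CD28 was at 564, 541, 472 and 651 CPM in helper cells, above every member value. The log2 difference was -1.56 (SE 0.22, edgeR adjusted p = 0.00083), and it was called under all 10 other settings. ITGAL was at 134, 192, 113 and 137 CPM in helper cells, below the members in each library (0.96, SE 0.22, adjusted p = 0.024). The ITGAL call was lost without LH replicate 1 (adjusted p = 0.637) and without LL replicate 2 (0.059), and with DESeq2 (0.159). NFKBIA, the inhibitor that NF-kappa-B itself induces, was at 745, 894, 794 and 876 CPM in members and at 1212, 1414, 1248 and 2179 CPM in helper cells. The groups did not overlap, and the difference was -0.84 (SE 0.13, adjusted p = 0.0011).

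BHLHE40, a transcription factor of cytokine-producing T cells, differed from helper cells by -1.07 (SE 0.17, edgeR adjusted p = 0.0021). With 3 UMIs of CD3E and CD247 required it differed by -0.55 (adjusted p = 0.58), and NFKBIA (0.114) and ITGAL (0.152) also missed the threshold. ZFP36, which speeds the decay of cytokine mRNAs, differed by -0.61 (SE 0.15, adjusted p = 0.031), lost without LH replicate 1 (0.529) and without LL replicate 2 (0.093). BTG2, an antiproliferative gene, differed by -0.67 (SE 0.18, adjusted p = 0.047), lost when LH replicate 1 (0.589), LL replicate 1 (0.094) or LL replicate 2 (0.126) was left out, with DESeq2 (0.17) and after thinning (0.149). Interleukin 4 was not detected in members (0 UMIs in all 4 libraries) and had 121 UMIs in helper cells of 3 libraries. With a floor of 3 UMIs over all members, IL4 was at least 38.2-fold higher in helper cells. IL1A did not pass the test here (log2 difference -0.01, SE 0.29, edgeR adjusted p = 0.999).

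Against activated T cells with CTLA4 or IL2RA, members had more IFNG, TNF and ITGAL and less CD28, NFKBIA and CDKN1A. Of 3129 genes tested, edgeR called 155 (4.95%), 64 higher (2.05%) and 91 lower (2.91%). The activated cells were few, with 108 and 18 in LH against 24 and 23 in LL, and deeper, with medians of 5039.5, 3592.5, 3800.5 and 3173 UMIs. Without LH replicate 1 the count was 63, and without the library block 60.

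IFNG was at 860, 115, 386 and 87.5 CPM in activated cells, below the members of each library but overlapping them across ewes. Its log2 difference was 1.44 (SE 0.31, edgeR adjusted p = 0.0066), lost without LH replicate 2 (0.056) and without LL replicate 2 (0.051). TNF differed by 1.01 (SE 0.23, adjusted p = 0.011), lost without LH replicate 1 (0.199) and without LH replicate 2 (0.06). TIMP1 was at 423, 364, 353 and 294 CPM in members and at 188, 129, 188 and 98.5 CPM in activated cells. These groups did not overlap (1.20, SE 0.21, adjusted p = 0.0017), and the call held under all 10 other settings.

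ITGAL was 1.20 higher in members than in activated cells (SE 0.26, edgeR adjusted p = 0.0068, and 0.26 without LH replicate 1). CCND3 was 0.91 higher (SE 0.19, adjusted p = 0.0052), lost without LH replicate 1 (0.092) and without LH replicate 2 (0.06). CDKN1A, the cell cycle inhibitor p21, was at 93.9, 94.5, 81.9 and 82.3 CPM in members and at 232, 402, 386 and 197 CPM in activated cells. The difference was -1.70 (SE 0.24, adjusted p = 0.00028) and held under all 10 other settings. With DESeq2 the calls of IFNG (0.124), TNF (0.115) and ITGAL (0.077) were lost, and with 3 UMIs of CD3E and CD247 required those of IFNG (0.131), TNF (0.141), ITGAL (0.057) and CCND3 (0.078).

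CD28 differed by -1.36 between members and activated cells (SE 0.23, edgeR adjusted p = 0.0011). NFKBIA differed by -0.77 (SE 0.14, adjusted p = 0.0021) and IL12RB2 by -1.46 (SE 0.30, adjusted p = 0.0049). With cells thinned to equal depth IL12RB2 differed by -0.72 and was not called (adjusted p = 0.309). The tetraspanin CD9 differed by -3.31 (SE 0.69, adjusted p = 0.0059, and 0.092 without LH replicate 1), at 0 to 30.7 CPM in members and 65.9 to 131 CPM in activated cells. PPARG, a lipid-sensing nuclear receptor that regulatory T cells of fat tissue use, differed by -2.56 (SE 0.51, adjusted p = 0.0043). Its level ranged from 7.27 to 30.7 CPM in members and from 14.4 to 254 CPM in activated cells. In LH replicate 2 each group held 1 PPARG UMI, and in LL replicate 2 members held 4 and activated cells 3. LH replicate 1 had 6 in members against 45, and LL replicate 1 had 12 against 27. PPARG could be tested under only 5 other settings.

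**Figure D3:**
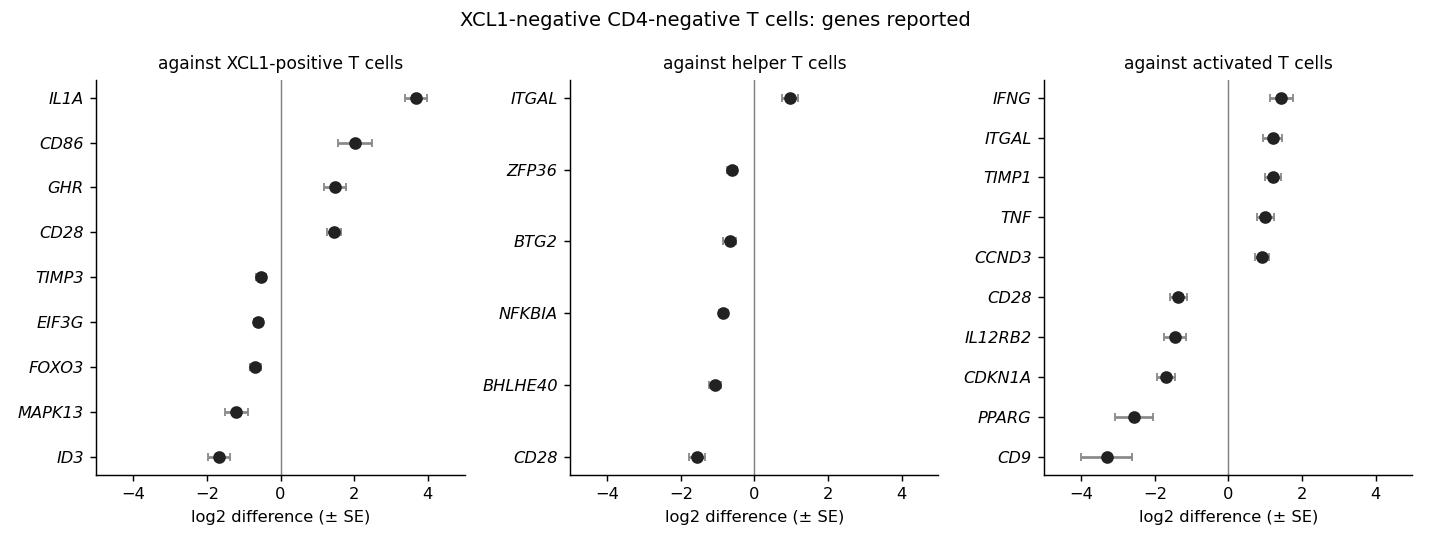
Log2 differences with standard errors (edgeR) for genes with a symbol reported in each comparison; positive values are higher in XCL1-negative CD4-negative T cells. ITGAL is positive against helper and activated cells, and CD28 is positive against XCL1-positive cells (1.45) and negative against helper (-1.56) and activated (-1.36) cells.

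All 6027 other cells with a CD3E or CD247 UMI formed the widest comparison. Of 11277 genes edgeR called 1909 (16.9%), 511 higher (4.53%) and 1398 lower (12.4%) in members. The lower genes were led by epithelial ones, and the other cells were not limited in EPCAM, DCN, C1QA or EDNRA. Their 8 luminal markers without EPCAM summed to 736, 3853, 2034 and 3461 CPM. The milk protein lactoferrin (LTF), for example, was at 4.33, 36.4, 28.2 and 70.5 CPM in members and at 184, 812, 838 and 1752 CPM in the other cells. All 4 tested genes of the milk and luminal list were lower (median -4.32 against -0.07 over all genes). The other 11 genes that led the falls by size were SPP1, PAEP, CRYAB, NFIB, CLDN1, CLDN4, CLDN7, ITGB6, MMP7, MET and CCL28, from -5.35 to -3.60.

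With the other cells held to the limits of the rule, edgeR called 230 of 7028 genes (3.27%), 75 higher (1.07%) and 155 lower (2.21%). LTF then differed by 0.20 (adjusted p = 0.912). Of the genes that led the higher side by size, ITGB2 (1.40, adjusted p = 0.02), ITGAL (0.87, adjusted p = 0.0012) and CD86 (1.29, adjusted p = 0.037) remained called by edgeR. CD52, LCK, SLC2A3, CD53, CXCR4, IFNG, TMEM154 and TNF were no longer called, and CD53 turned to -0.01. Against the unlimited cells CD86 lost its call without LL replicate 1 (edgeR adjusted p = 0.202), LCK lost it without any 1 of the 4 libraries (0.07 to 0.251), and TNF, CXCR4 and TMEM154 without LL replicate 1 (0.333, 0.121 and 0.169). TNF also lost it without LH replicate 1 (0.077), CXCR4 without LL replicate 2 (0.154), and TMEM154 without LH replicate 2 (0.052) or LL replicate 2 (0.082). ITGB2, at 70.8, 87.3, 28.2 and 47.0 CPM against 19.6, 9.60, 19.1 and 11.9 CPM in the unlimited cells, was called under each of the 15 other settings. Against helper T cells and against activated T cells ITGB2 was tested but not called.

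IL1A was 1.09 higher in members than in the other cells (SE 0.23, edgeR adjusted p = 5.2e-05) and 1.61 higher with the limits (adjusted p = 0.00066), in 3 of 4 libraries in the first case. NCR1 was at 15.9, 7.27, 12.8 and 11.8 CPM against 3.61, 0.496, 5.26 and 1.58 CPM. It was higher in all 4 libraries (2.02, SE 0.56, adjusted p = 0.0032) on 19 UMIs in members. FCGR3A was at 59.2, 7.27, 17.9 and 5.88 CPM against 11.2, 7.44, 9.30 and 2.98 CPM, with LH replicate 1 far above the rest (1.64, SE 0.41, adjusted p = 0.0009). With the limits its adjusted p was 0.095. Each of these 3 calls ended with 1 library left out, IL1A without LL replicate 1 (edgeR adjusted p = 0.172) and, without LH replicate 1, NCR1 (0.157) and FCGR3A (0.628). With 3 UMIs of CD3E and CD247 required IL1A (0.348) and NCR1 (0.268) missed the threshold, and with DESeq2 IL1A (0.122) and FCGR3A (0.132).

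Between the stages, no gene of the members was called. Of 4167 genes edgeR called 0 (0%), while 284 genes (6.82%) had p under 0.05 before adjustment. The DESeq2 count was 2. The 2 ewes of each stage did not overlap for 34.5% of the genes, with LL higher for 14.4% and lower for 20.1%. None of the genes tested from the 15 gene lists was among edgeR's calls. In simulated data of this comparison edgeR recovered 86.5% of changes of 2 on the log2 scale and 26.7% of changes of 1, with 5 false calls. The simulation gave every gene the same dispersion (0.049), so these shares need not hold for the ewes' own data. Leaving out LH replicates 1 and 2 and LL replicates 1 and 2 in turn gave 31, 157, 12 and 161 calls, in fits where 1 stage has a single ewe assumed to vary like the other stage.

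The genes with a symbol and the lowest p were led by transcripts of other cell types. IGFBP7, a vascular and mural cell protein, was at 8.67 and 29.1 CPM in LH against 141 and 88.2 CPM in LL (log2 difference 3.25, SE 0.55, edgeR adjusted p = 0.148). The actin-severing protein gelsolin (GSN), abundant in fibroblasts, was at 30.3 and 50.9 CPM in LH against 159 and 99.9 CPM in LL (1.98, SE 0.42, adjusted p = 0.208). The milk protein gene PAEP was at 1.44 and 21.8 CPM in LH against 53.8 and 70.5 CPM in LL (3.48, SE 0.86, adjusted p = 0.301). Both LL ewes lay above both LH ewes for all 3 genes.

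Marker sums of those cell types contain IGFBP7, GSN and PAEP themselves, so they are not separate from the values above. The 6 fibroblast markers without DCN summed to 34.7 and 50.9 CPM in LH against 210 and 106 CPM in LL, with only SFRP2 at 0 in all libraries. GSN made up most of this sum in every library. The 5 contractile markers without EDNRA summed to 21.7 and 94.5 CPM in LH against 218 and 135 CPM in LL. In LL most of that sum was IGFBP7. The 8 luminal markers summed to 21.7 and 175 CPM in LH against 123 and 153 CPM in LL and overlapped. Members without a UMI of 9 such genes numbered 184, 22, 67 and 40, and among these edgeR called 2 genes between the stages. The part of other cells' RNA in the stage values was not tested further.

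Of lymphocyte genes, the signalling receptor SLAMF1 was at 53.4 and 58.2 CPM in LH against 115 and 170.5 CPM in LL (log2 difference 1.38, SE 0.35, edgeR adjusted p = 0.301). The stages did not overlap, and among members free of other cells' UMIs the difference was 1.78 (adjusted p = 0.329). CD28 was at 181 and 58.2 CPM in LH against 253 and 235 CPM in LL (0.90, SE 0.41, adjusted p = 0.727). ITGB2 was at 70.8 and 87.3 CPM in LH against 28.2 and 47.0 CPM in LL (-1.05, SE 0.42, adjusted p = 0.68). ITGAL was at 365 and 225 CPM in LH against 189 and 188 CPM in LL (-0.64, SE 0.32, adjusted p = 0.783). The stages did not overlap for these 3 genes, as for 34.5% of all genes tested, and none passed the test.

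IFNG overlapped between stages, with 1179 and 574 CPM in LH against 853 and 1035 CPM in LL (0.12, SE 0.34, edgeR adjusted p = 0.992). TNF overlapped too, at 503 and 175 CPM in LH against 307 and 112 CPM in LL (-0.63, SE 0.52, adjusted p = 0.929).

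The other 5 genes by rule were ABHD5, a cofactor of triglyceride breakdown (-2.28), the galactosyltransferase B4GALT1 (1.59), the tubulin TUBA4A (-0.95), BTG2 (0.86) and ZFP36 (0.65), with edgeR adjusted p from 0.325 to 0.678. ABHD5 was highest in LH replicate 1, with 103 CPM there against 36.4 CPM in the other LH library and 20.5 and 5.88 CPM in LL. Among members free of other cells' UMIs, TUBA4A differed by -0.08, ZFP36 by 0.01 and BTG2 by 0.79.

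**Figure D4:**
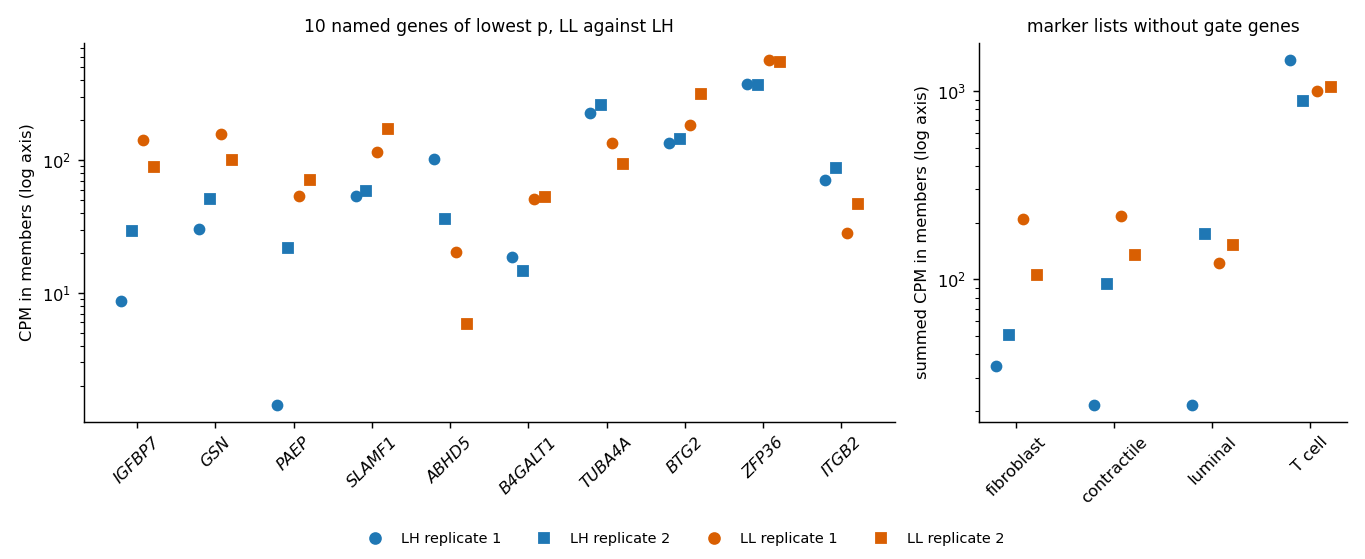
Left: level of the 10 genes with a symbol and the lowest p between stages in members of each library (CPM, log axis); the stages do not overlap for any of the 10, and none passed the adjusted threshold. Right: summed levels of marker lists without the genes of the rule (log axis), in which the fibroblast and contractile sums of both LL libraries lie above both LH libraries. The fibroblast, contractile and luminal sums contain GSN, IGFBP7 and PAEP of the left panel.

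Whether the stage difference of the members departed from that of the other CD3E or CD247 cells was tested as an interaction. In simulated data of this comparison, edgeR recovered 34.3% of changes of 2 on the log2 scale and 1.04% of changes of 1. Few calls therefore do not show that the stage differences were alike. In the ewes' own data edgeR called 12 of 11277 genes (0.106%), 11 with the LL against LH difference higher in members (0.0975%) and 1 lower (0.00887%). IGFBP7 was the only one with a symbol, with a difference of the log2 differences of 2.40 (SE 0.58, edgeR adjusted p = 0.035). In the other cells it was at 59.1 and 129 CPM in LH against 206 and 62.7 CPM in LL, so that the stages overlapped there. It was called under 1 of 6 other settings and lost its call when any 1 of the 4 libraries was left out. Without LH replicate 1, LH replicate 2 and LL replicate 1 in turn 2, 20 and 2 genes were called in all.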

How the data were processed

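Single-cell libraries of 4 ewes were analysed from the gene by barcode UMI counts that the authors deposited, which are raw counts. Cell Ranger 5.0.1, STAR and Seurat 3.2.0 stand in the submitters' processing notes, whereas the file headers name Cell Ranger 7.2.0. The genome build is not given in the sources used here. Of 20150 genes 774 carry a symbol, and all but a few statements rest on those.

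Cells with over 20% mitochondrial UMIs were left out. The libraries held 28015149 to 65339993 UMIs. Doublets were scored by simulated doublets at 0.8% per 1000 cells and kept, with their removal as an alternative. For each library the UMIs of a cell group were added up and tested with edgeR 4.0.16 (quasi-likelihood, TMM, filterByExpr with a minimum count of 10, Benjamini-Hochberg adjustment over all genes but the 11 of the rule, threshold 0.05) in R 4.3.3. Comparisons of cell groups had the library as a block, because both groups come from the same ewe. Replicate numbers are not said to pair LH with LL ewes, so the main stage fit had no block. The correlation of deviations between equal numbers was -0.05 over 4170 genes. With only 2 ewes per stage it cannot show whether ewes were paired. Standard errors are the log2 difference divided by the square root of F. DESeq2 1.42.0 was an alternative. An exact two-sided permutation test over ewes compared shares, with exact 95% Clopper-Pearson intervals that cover counting error only. Thinning drew 1000 UMIs per cell and left out shallower cells (482 of 495 members remained). Scripts ran in Python 3.11.15, numpy 2.4.6 and scipy 1.17.1, and were tested on simulated data.

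The members and gene lists were chosen with earlier results of these data known. Named genes had a symbol, an adjusted p under 0.05, at least 20 CPM in the higher side and 1 sign in all 4 libraries: the 12 highest and 12 lowest against all other CD3E or CD247 cells and the 5 highest and 5 lowest against each T cell gate. Fewer than 10 passed between stages, so the 10 with the smallest p were given. ITGB2 against XCL1-positive cells and other listed genes were added as members of the lists. Some genes that the rule names are not reported here.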

Additional observations from a re-analysis of the deposited data

Results flagged for a closer look

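The stage difference of IGFBP7 was called as larger in the members than in the other CD3E or CD247 cells, by an interaction term of 2.40 on the log2 scale (SE 0.58, edgeR adjusted p = 0.035). Members held 6 and 4 IGFBP7 UMIs in LH and 55 and 15 in LL. The DESeq2 interaction gave 2.45 with an adjusted p of 1.00. The call was lost when any 1 library was left out, with edgeR adjusted p of 1.00 and 0.085 without LH replicates 1 and 2 and of 0.331 and 0.366 without LL replicates 1 and 2. The contractile marker sum in members was 21.7 and 94.5 CPM in LH against 218 and 135 CPM in LL. That sum contains IGFBP7 itself, so it is not separate from the IGFBP7 values. The part of contractile cells' RNA was not tested.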

How the results depend on the processing

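DESeq2 called 2 genes between stages, 1096 against all other CD3E or CD247 cells, 61 against helper, 95 against activated and 266 against XCL1-positive cells, and 1 in the interaction. Without the replicate block, which here is the library, the 4 comparisons of cell groups gave 433, 9, 60 and 30 calls. Requiring 3 UMIs of CD3E and CD247 gave 1142, 38, 47 and 149. Thinning to 1000 UMIs gave 304 against all other cells and 96 against activated cells, and holding the other cells to the limits of the rule gave 230. Between stages, edgeR called 152 genes with no low-count filter, 5 in cells of at least 1000 UMIs, 2 at 10% mitochondrial UMIs, 2 with a CD3E UMI required, 2 with the replicate block and 2 without members holding other cells' UMIs, against 1 for the interaction in the last case. Leaving out 1 library gave 12 to 161 calls between stages, 30 to 126 against helper, 63 to 151 against activated, 228 to 385 against XCL1-positive cells and 2 to 20 in the interaction. The difference in the share of CD3E or CD247 cells ranged from -0.026 to 3.40 points when 1 library was left out and was -0.263 points with 3 UMIs required. It was 2.60 points with the rule applied to cells thinned to 1000 UMIs. The difference in the share of all cells ranged from -3.01 to 0.364 points when 1 library was left out. Against all other cells, SLC2A3 turned to -0.054 and IFNG to -0.093 with 3 UMIs required, CD53 to -0.012 and LTF to 0.203 with the limits, and CD53 to -0.023 and IFNG to -0.0051 after thinning. The cause of these changes was not tested. Depth limits genes under a few CPM, since 1 UMI was worth 1.44 to 7.27 CPM.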
